A study of Mus musculus with 2 samples.

Results

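The trophectoderm regulators examined here are 10 genes of the outer layer of the mouse blastocyst, the tissue that founds the placenta: Cdx2, Eomes, Elf5, Tfap2c, Gata3, Gata2, Hand1, Ascl2, Plac1 and Cited1. They were chosen by name, with keratin genes left out, and all probe sets annotated to 1 of these genes alone were used. That gave 19 probe sets of 22626 on the array, and 10 genes of the 12393 that have such a probe set. The other measured genes of the arrays serve only as the background for size.

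RNA came from 2 stably transfected clones of the mouse embryonic stem cell line E14tg2a. The shDAB2 clone (clone 4) carries a plasmid for a short hairpin RNA against Dab2, an endocytic adaptor gene, and the vector clone (clone 9) carries the control plasmid. Both were kept in 10% fetal bovine serum with LIF (leukaemia inhibitory factor) at 1000 U/ml, and LIF is the cytokine that holds such cells undifferentiated. Each group is 1 clone on 1 Affymetrix mouse 430A array, so no spread between cultures or clones can be estimated, no test across samples exists and no p-value is given. All values are log2 RMA values, and each difference is the shDAB2 value minus the vector value. The targeted gene, Dab2, was read by 3 probe sets. The brightest gave 6.33 in shDAB2 cells against 6.64 in vector cells, a difference of -0.31, and the others differed by -0.05 and -0.01. The brightest lay at percentile 28.4 of the shDAB2 array and 50.9 of the vector array. The others lay below the median of all probe sets on both arrays. Signal this dim limits what can be read about the level of Dab2. Hairpin, clone and culture cannot be told apart here, since each group is 1 clone on 1 array.

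In the blastocyst, Hippo signalling is low in outer cells, where the co-activator YAP and the DNA-binding factor TEAD4 switch on Cdx2. CDX2 and OCT4 (Pou5f1) hold each other back, and GATA3, EOMES, ELF5 and TFAP2C then sustain the trophoblast stem cell state. HAND1 and ASCL2 act later, in trophoblast giant cells and in the spongiotrophoblast. Embryonic stem cells come from the inner cell mass and normally keep this programme off, although TFAP2C is also known from germ cells and pluripotent cells.

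The 10 genes were dim in both clones. Each gene was represented by its brightest probe set, the one with the highest mean over both arrays. The median value of the 10 genes was 6.58 in shDAB2 cells against 6.59 in vector cells. The median of all probe sets was 6.62 on each array, so the genes as a group sat at percentile 48.0 of the shDAB2 array and 48.4 of the vector array. Only Tfap2c, Gata2, Hand1 and Cited1 lay above the array median, and these 4 did so in both clones. A floor was set at 6.62, the median of all values of both arrays. It was reached on 1 array or both by 4 of the 10 genes (40.0%), against 58.7% of all genes. Probe sets bind with different strength, so these positions describe each probe set on its array and do not rank 1 gene above another. Differences between dim probe sets are compressed by RMA, which touches the 6 genes below the floor most.

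**Figure D1:**
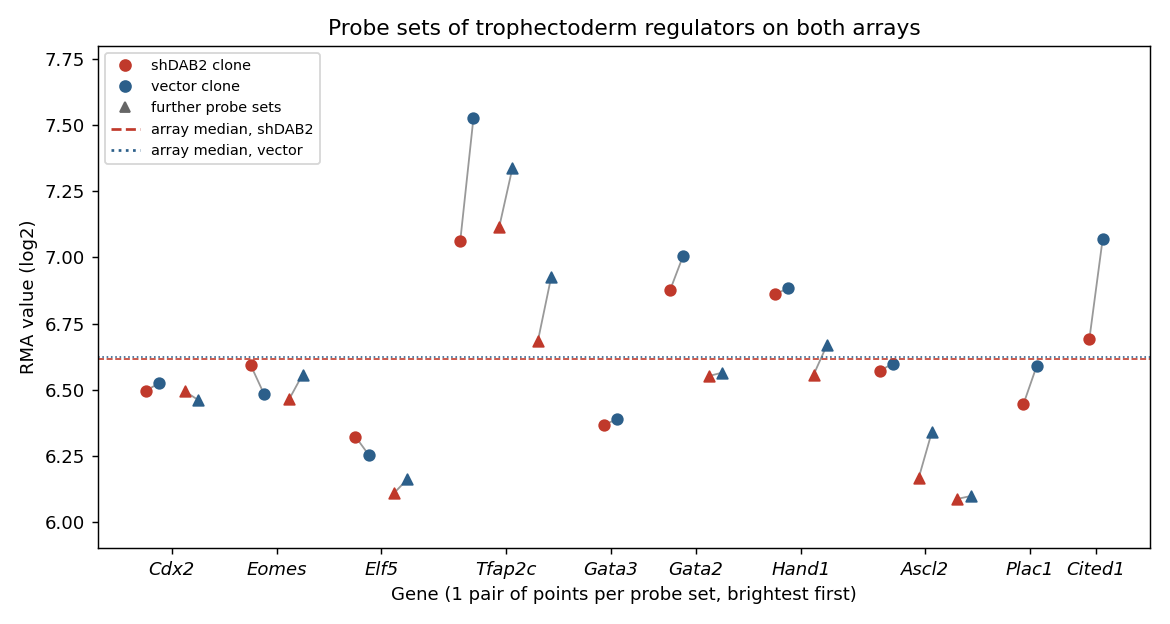
RMA values (log2, vertical axis) of the 19 probe sets of the 10 trophectoderm regulators, with the shDAB2 clone (red) left of the vector clone (blue) in each pair, circles for the brightest probe set of a gene and triangles for its further probe sets. Horizontal lines mark the array medians of 6.62, and the 3 pairs of Tfap2c and the pair of Cited1 slope towards higher vector values.

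Between the clones, 2 of the 10 genes differed by at least 0.32 on the log2 scale, the smaller of the size limits used here, and both were lower in the shDAB2 clone. They were Tfap2c at 1.38-fold lower and Cited1 at 1.298-fold lower. A difference of that size and direction occurred in 3.57% of all 12393 genes and in 6.07% of the 7269 genes above the floor. None of the 10 was higher by at least 0.32, where 2.9% of all genes were. None reached 1.5-fold in either direction, where 0.952% of all genes were lower and 0.339% higher by that much. In sign alone 8 genes were lower and 2 higher, against 45.9% of all genes lower and 52.9% higher. The median difference over the 10 genes was -0.03, beside 0.01 over all genes. The differences on the 2 sides of the floor were unlike in size. The 4 genes above it, which reached it on both arrays, lay between -0.47 and -0.02 with a median of -0.25. The 6 below it lay between -0.14 and 0.11 with a median of -0.02. Over all genes the differences had an SD of 0.22 above the floor and 0.07 below it. A narrower range below the floor is therefore general to these arrays. The median of the 4 genes above the floor lies midway between Cited1 at -0.38 and Gata2 at -0.13, so it rests on few values.

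**Figure D2:**
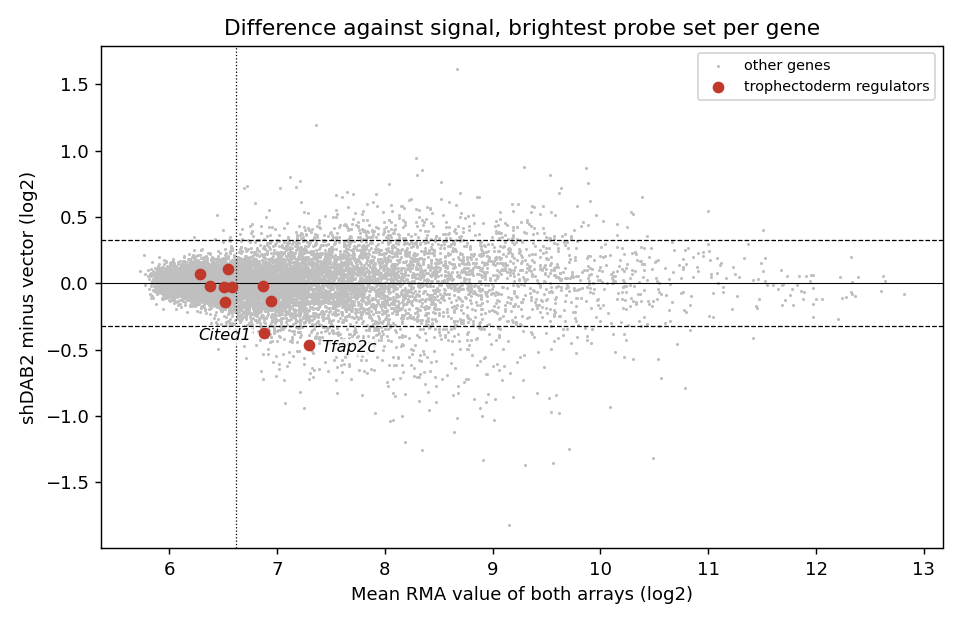
Difference between the clones (shDAB2 minus vector, log2) against the mean RMA value of both arrays (log2), with 1 point per gene from its brightest probe set. Dashed lines mark log2 differences of 0.32 in both directions and the dotted line the floor of 6.62; of the 10 trophectoderm regulators (red) only Tfap2c and Cited1 lie beyond a dashed line, and differences of other genes (grey) narrow towards the dim end.

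Cdx2 encodes the homeodomain factor that specifies trophectoderm. Its brighter probe set read 6.50 in shDAB2 cells against 6.52 in vector cells, and its other probe set 6.49 in shDAB2 cells against 6.46 in vector cells. All 4 values lay below the array medians, by 0.12 on the shDAB2 array for both probe sets and by 0.10 and 0.16 on the vector array. The differences were -0.03 and 0.03, so the probe sets pointed opposite ways by equally small amounts. Among the 500 probe sets nearest in mean signal the differences had SDs of 0.09 and 0.08, which describes how far dim probe sets scatter between these 2 arrays.

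Eomes and Elf5, a T-box and an ETS-family factor of trophoblast stem cells, were the 2 genes with a higher value in the shDAB2 clone. For Eomes the brighter probe set read 6.59 in shDAB2 cells against 6.49 in vector cells, a difference of 0.11. The other Eomes probe set read 6.47 in shDAB2 cells against 6.56 in vector cells, a difference of -0.09. Elf5 showed the same split. Its brighter probe set read 6.32 in shDAB2 cells against 6.25 in vector cells, a difference of 0.07. Its dimmer one read 6.11 in shDAB2 cells against 6.16 in vector cells, a difference of -0.05. Neither gene therefore had a direction that both its probe sets shared, and Elf5 lay at percentile 27.7 of the shDAB2 array and 22.7 of the vector array on its brighter one.

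Tfap2c, which encodes the AP-2 family factor needed for the extraembryonic ectoderm, had the largest difference of the 10 genes on its brightest probe set, though not with its probe sets averaged, where its -0.31 was smaller than the -0.38 of Cited1. The brightest of its probe sets was at 7.06 in shDAB2 cells against 7.53 in vector cells, a difference of -0.47. The second read 7.11 in shDAB2 cells against 7.34 in vector cells, a difference of -0.22. The third read 6.69 in shDAB2 cells against 6.93 in vector cells, a difference of -0.24. All 3 probe sets lay above the floor on both arrays and all 3 were lower in the shDAB2 clone, but only the brightest passed the limit of 0.32; the others came to 1.17-fold and 1.18-fold lower. The brightest probe set lay at percentile 68.3 of the shDAB2 array and 79.0 of the vector array. Probe sets of similar signal differed with an SD of 0.20, so the differences were 2.37, 1.14 and, with an SD of 0.15 for the third, 1.61 times that SD. For comparison, the differences of 2 probe sets of 1 gene above the floor scattered with an SD of 0.11 for 1 probe set over 2500 genes. In bulk RNA, fewer cells with a transcript and less of it per cell cannot be told apart. Of the AP-2 family genes Tfap2a and Tfap2b, named after their values were seen, Tfap2a read 6.50 in shDAB2 cells against 6.61 in vector cells and Tfap2b 6.21 in shDAB2 cells against 6.19 in vector cells, all below the floor.

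Gata3 and Gata2 encode zinc finger factors of the trophoblast. Gata3, with 1 probe set, read 6.37 in shDAB2 cells against 6.39 in vector cells, a difference of -0.02, at percentile 31.6 of the shDAB2 array and 34.1 of the vector array. Gata2 read 6.88 in shDAB2 cells against 7.01 in vector cells on its brighter probe set, a difference of -0.13. The second Gata2 probe set lay below the floor at 6.55 in shDAB2 cells against 6.56 in vector cells and differed by -0.01. The larger of these differences was 0.83 times the SD of 0.16 among probe sets of similar signal.

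Hand1 and Ascl2 are basic helix-loop-helix genes of later trophoblast, and Ascl2 is imprinted. Hand1 read 6.86 in shDAB2 cells against 6.88 in vector cells on the brighter probe set, a difference of -0.02. On the other it read 6.56 in shDAB2 cells against 6.67 in vector cells, a difference of -0.11, or 1.01 times the SD of its neighbours in signal. The 3 probe sets of Ascl2 read 6.57, 6.16 and 6.09 in the shDAB2 clone, against 6.60, 6.34 and 6.10 in the vector clone. All 6 values were below the floor, and all 3 differences were negative, at -0.03, -0.17 and -0.01. The middle one, although small, was 2.32 times the SD of 0.08 in its signal range, while the other 2 were under that SD.

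Plac1, an X-linked gene for a surface-associated protein of trophoblast, had 1 probe set below the floor. It read 6.44 in shDAB2 cells against 6.59 in vector cells, a difference of -0.14 or 1.5 times the SD of its neighbours in signal. Cited1, also X-linked, encodes a transcriptional co-activator that binds CBP and p300 and is known from trophectoderm-derived cells. Its only probe set read 6.69 in shDAB2 cells against 7.07 in vector cells, so it stood 0.08 above the array median in the shDAB2 clone and 0.45 above it in the vector clone. The difference of -0.38 was 2.43 times the SD of 0.15 among probe sets of similar signal. No second probe set was measured for it, so this difference has no repeat on the arrays.

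Across the 10 genes, 7 had several probe sets. The sign was shared by all probe sets of Tfap2c, Gata2, Hand1 and Ascl2 and split in Cdx2, Eomes and Elf5. Of the 19 probe sets 16 were lower in the shDAB2 clone and 3 higher, beside 46.2% of all probe sets lower and 52.3% higher. A difference of more than 2 times the SD of its signal range was seen for 3 of the 19 probe sets (1 each of Tfap2c, Cited1 and Ascl2), beside 4.94% of all probe sets on the arrays. Probe sets of 1 gene report on the same transcript and are not independent of each other.

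Promoter windows of RefSeq (GRCm38.p6, 250 bases before to 50 after an annotated start) were at hand for 8 of the 10 genes, as 13 windows; Tfap2c and Hand1 had no entry. The windows of Cdx2 and Cited1 are shown up to the start itself, Cdx2 as the gene that specifies the lineage and Cited1 as the gene past the limit of 0.32 whose promoter was at hand. Each is written 5′ to 3′ on the gene's strand. Capitals mark a match to the AP-2 motif GCCNNNGGC in Cdx2 and to the TATA box TATAAA in Cited1. The Cdx2 stretch is chr5:147307250-147307499 on the minus strand, and that of Cited1, for the first of its 3 annotated starts, is chrX:102252182-102252431 on the minus strand.
Cdx2: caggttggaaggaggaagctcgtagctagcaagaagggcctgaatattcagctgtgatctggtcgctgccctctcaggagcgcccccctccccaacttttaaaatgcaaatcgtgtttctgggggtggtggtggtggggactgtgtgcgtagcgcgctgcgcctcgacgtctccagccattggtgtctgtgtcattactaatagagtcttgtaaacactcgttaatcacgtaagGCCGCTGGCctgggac
Cited1: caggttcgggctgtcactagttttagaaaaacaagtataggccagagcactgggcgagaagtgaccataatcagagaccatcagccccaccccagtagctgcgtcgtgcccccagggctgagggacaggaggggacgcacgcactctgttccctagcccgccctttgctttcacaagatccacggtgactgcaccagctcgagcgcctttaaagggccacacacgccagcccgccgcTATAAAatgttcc

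The AP-2 motif, which is its own reverse complement, was found in 4 of the 13 windows, 1 each of Cdx2, Gata3, Gata2 and Cited1, and in 16.6% of all 32851 RefSeq windows. In Gata3 it occurred at 3 places. The TEAD motif CATTCC, searched on both strands, was in 1 window each of Elf5 and Gata2 and in 14.7% of all windows. The GATA motif AGATAA, also on both strands, was in 1 window of Plac1 and in 11.2% of all windows. TATAAA, searched on both strands, was in 2 of the 3 Cited1 windows and in 13.6% of all windows, and in the stretch printed above it begins 13 bases before the start. A match describes letters only. By composition, 10 of the 13 windows had more CG dinucleotides than the median of 7 of all windows, with 32 in 1 window each of Gata2 and Cited1 and 3 in 1 window each of Elf5 and Plac1.

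Genes of the same pathway were described from lists whose members were set by name. All genes of these lists that were lower by at least 0.32 reached the floor on both arrays, except Plet1, which reached it only on the vector array. Of all genes above the floor 6.07% were lower by that much. Of 14 genes upstream of Cdx2 in the Hippo and Notch pathways 2 were lower in the shDAB2 clone by at least 0.32, where 3.57% of all genes were, and 0 higher by that much, with a median difference of -0.08. Amotl2, of the angiomotin family that binds YAP, read 7.93 in shDAB2 cells against 8.55 in vector cells, a difference of -0.61 from its only probe set. Wwtr1, which encodes the YAP-related co-activator TAZ, read 7.29 in shDAB2 cells against 7.64 in vector cells, a difference of -0.36 and of -0.22 on its second probe set. Both stood above the floor in both clones. Notch2 differed by -0.26, but by only -0.01 on its second probe set, which was below the floor. Tead4, the factor that acts directly on Cdx2, lay below the floor at 6.44 in shDAB2 cells against 6.53 in vector cells.

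Other regulators of trophectoderm and trophoblast were measured for 16 of 18 names, and 5 were lower in the shDAB2 clone by at least 0.32 (3.57% of all genes) and 1 was higher by that much (2.9% of all genes), with a median of -0.09. Besides Klf5 (-1.25, and -0.33 on its second probe set) and Bmp4 (-0.53) these were Rhox6, Rhox9 and Ets2. Rhox6, a placental homeobox gene of the X chromosome, read 6.64 in shDAB2 cells against 7.33 in vector cells, a difference of -0.70 where probe sets of similar signal had an SD of 0.15. Its neighbour in the same cluster, Rhox9, read 6.74 in shDAB2 cells against 7.15 in vector cells, a difference of -0.41. The ETS factor gene Ets2 differed by -0.34, and both it and Rhox9 were named after their values were seen. The gene that was higher, also named after its value was seen, was the homeobox gene Hopx, at 7.70 in shDAB2 cells against 7.19 in vector cells, a difference of 0.51 and of 0.34 on its second probe set. Id2, an inhibitor of helix-loop-helix factors, differed by -0.28 and by -0.48 on its second probe set.

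Of 12 measured products of trophoblast 4 were lower in the shDAB2 clone by at least 0.32 (3.57% of all genes) and 0 higher by that much, with a median of -0.16. The 3 of them below the floor pull it towards 0, and the median of the other 9 was -0.28. Of those 9, Plet1 and Peg10 reached the floor only on the vector array. Peg10, named after its value was seen, read 6.47 in shDAB2 cells against 6.75 in vector cells. Genes that pass the floor only where they are high favour negative differences, so the median of the 9 is partly set by the floor. The 4 past the limit were the keratin genes Krt18 (-1.32) and Krt8 (-0.72, and -0.89 on its second probe set), the sodium pump subunit gene Atp1b1 (-0.34, and -0.14 on its second probe set) and Plet1 (-0.34), a trophoblast surface gene named after its value was seen. Keratin genes have pseudogenes that probes may also match, so both keratin values are less certain. The second probe set of Plet1 lay below the floor and differed by -0.03. Tpbpa, Psg17 and Ctsq, which mark differentiated trophoblast and were named after their values were seen, lay below the floor in both clones with differences of 0.03, 0.08 and 0.02. Among 6 pluripotency factors none differed by 0.32. Pou5f1 read 9.93 in shDAB2 cells against 9.83 in vector cells. Esrrb differed by -0.24, Zfp42 by 0.17 and Sox2 by -0.17.

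**Figure D3:**
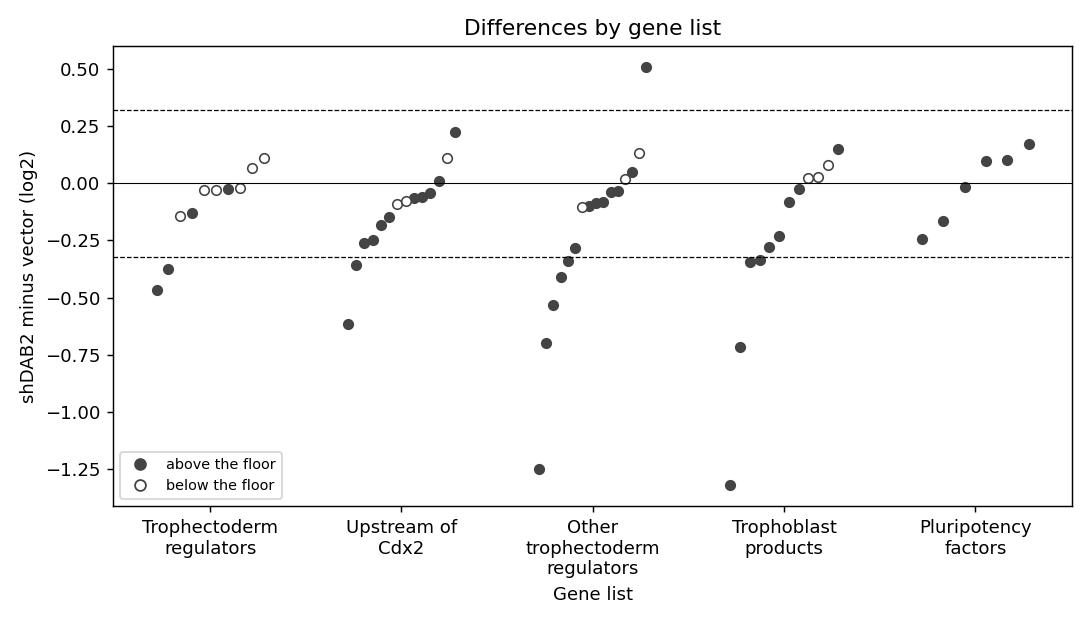
Differences between the clones (shDAB2 minus vector, log2, vertical axis) for the 10 trophectoderm regulators and for 4 related lists (horizontal axis), 1 point per gene in order of size within its list, filled where the gene is above the floor. Dashed lines mark log2 differences of 0.32 in both directions, which 2 trophectoderm regulators, 2 genes upstream of Cdx2, 5 other regulators and 4 trophoblast products pass on the lower side and 1 other regulator, Hopx, on the higher side.

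The cells carried the markers of their label. All 8 embryonic stem cell markers were above the floor in both clones, between 8.57 and 12.29 in the shDAB2 clone and between 8.29 and 12.37 in the vector clone. The largest difference among them was that of Fgf4, at 0.61 and at 0.34 on its second probe set. Several of the 10 trophectoderm genes also serve other lineages, as Eomes, Hand1 and Gata2 do in mesoderm and blood. None of 8 primitive endoderm markers, none of 6 mesoderm and primitive streak markers and none of 8 fibroblast markers measured reached the floor. Their values reached at most 6.61 in shDAB2 cells against 6.62 in vector cells, just under the floor, and none differed by 0.32 or more. Of 6 blood markers Itga2b (6.97 in the shDAB2 clone, 6.92 in the vector clone) and Runx1 (6.83 in the shDAB2 clone, 6.73 in the vector clone) were above the floor.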

How the data were processed

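RNA was measured on 2 Affymetrix mouse 430A arrays, 1 for each clone, and groups were taken from the sample titles. Per the labels' protocols, biotinylated cRNA was made from 10 µg of total RNA. The deposited table holds 1 value per probe set and array, made with RMA (background subtraction, quantile normalization and a summary over the probes of each set) per the submitters' processing notes. The version of RMA and the base of its logarithm are not stated in the labels. The deposited values were taken as log2 values because RMA writes log2 and because their highest was 12.81 in shDAB2 cells and 12.86 in vector cells. Differences between dim probe sets are compressed by RMA, which understates folds near the floor. The number of arrays limits the precision.

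Probe sets were named from the supplied platform annotation, and only the 20380 with 1 gene were used for values of genes. Array medians, percentiles, the floor and the shares of all probe sets were taken over all 22626 probe sets. The SDs of neighbours in signal were drawn from the same 22626. A gene with several probe sets took the one with the highest mean. The SD given beside a difference is that of the differences of the 500 probe sets nearest in mean signal. Size limits were log2 differences of 0.32 and 0.58, the second being 1.5-fold. The calculation was tested on simulated data. Alternatives were centring on the median, cyclic loess (limma 3.58.1 in R 4.3.3), other choices of probe set and other floors. The 10 genes, the lists, the size limits and the alternatives were chosen with earlier results of these data known. Named genes are the 10 genes, Dab2, Tead4, Pou5f1, Id2 and the 3 genes above the floor with the largest absolute difference in each pathway list; others are marked as named after their values were seen. The list of trophoblast products also held Dab1, a relative of Dab2 that is no trophoblast product, at a difference of -0.05. It was left out of the values given after the data were seen; with it, the median over 13 genes was -0.08.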

Additional observations from a re-analysis of the deposited data

How the results depend on the processing

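No paired analysis was possible because each group holds 1 array. The number of genes above the floor was 4 as reported. It was 1 (Tfap2c) with the floor at the 75th percentile of all values, which 31.2% of all genes reached. With the second brightest probe set it was 3 of 10, against 49.3% of all genes. Without _s_at, _x_at and _a_at probe sets it was 5 of 9, against 59.5%. That count of 5 rests on a floor lower than 6.62, so it does not show more signal. On the probe sets left, only Tfap2c, Hand1 and Cited1 reached 6.62. The next highest values were 6.59 for Eomes in shDAB2 cells and 6.59 for Plac1 in vector cells. Without a floor the number above it was not counted. The number lower by at least 0.32 was 1 with each gene's probe sets averaged, 1 with the second brightest probe set and 1 with the floor at the 75th percentile, against 2 as reported. The mean and the second probe set left out Tfap2c, whose further probe sets differed by -0.22 and -0.24, and the higher floor left out Cited1. No gene was higher by at least 0.32, or passed 1.5-fold in either direction, under any of the 7 alternatives. The median over all 10 genes stayed between -0.10 and -0.02; it uses no floor, so the floor alternatives did not enter it. Tfap2c ran from -0.47 to -0.22. Cited1 has 1 probe set, so 3 of its 5 alternatives could not move it, and centring and loess gave -0.37. Of 49 values of single genes 14 could not move because the probe set stayed the same; of the other 35, 30 moved by less than the SD of their signal range and 5 by more, and the sign changed in 4, which belong to Cdx2, Eomes and Elf5. Gata2 is the gene with no probe set left when those marked _s_at, _x_at and _a_at, which can match several transcripts, are dropped. Dim signal limits what can be seen for the 6 genes below the floor.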

Other observations

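On both arrays some probe sets share 1 value to the last deposited digit. Of all 22626 probe sets 340 (1.5%) had the same value in both clones, and none of the 19 probe sets of the trophectoderm regulators was among them. Within an array, 8.44% of probe sets of the shDAB2 clone and 7.83% of those of the vector clone shared their value with another probe set. The dimmer Cdx2 probe set had 1 of these values in the vector clone, which 13 probe sets there hold.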
